A study of Mus musculus with 36 samples.

Results

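DNA damage response and repair genes encode the proteins that find, signal and mend lesions in DNA. The set described here holds 43 genes, chosen by symbol and sorted by role into 9 pathway groups. All 43 were found in the count table of 21968 genes, and all 43 were among the 12812 genes that passed the filter on low counts. The values come from single mouse oocytes at the germinal vesicle stage, fully grown cells held in prophase of the first meiotic division, sequenced one oocyte per library. There were 18 oocytes from 4 mice (a to d) labelled Drp1_KO and 18 oocytes from 5 mice (1 to 5) labelled Drp1_WT, with 3 to 5 oocytes per mouse. Drp1, the product of Dnm1l, is the GTPase that divides mitochondria, and the title of the series speaks of its depletion in the oocyte. The labels used here give no allele, Cre driver, strain, age or hormone treatment for either genotype. The question taken up here is how far transcripts of each repair pathway were held in the oocyte, and whether their levels differed between the 2 genotype labels.

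Breaks of both strands are recognised by the Mre11a, Rad50 and Nbn complex and signalled by the kinases Atm and Atr through Chek2 and Chek1. They are mended by copying an intact template, which is homologous recombination, or by direct ligation, which is end joining. Smaller lesions go to base excision, nucleotide excision or mismatch repair, and crosslinks between strands go to the Fanconi anaemia pathway. A fully grown oocyte transcribes little and lives on stored RNA, which serves the end of meiosis and the first cell cycles of the embryo. Since the whole cell was sequenced, a lower level can reflect fewer molecules in the store or a smaller share of a store of another size, and these cannot be told apart on a relative scale.

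Promoter sequences are shown for 3 members because many replication and repair genes are known targets of E2F transcription factors, and the members differed widely in level. RefSeq promoters (GRCm38.p6, from 250 bases before to 50 after the start) were matched for 37 of the 43 members, as 44 promoters. Related E2F words were searched on both strands, namely TTTCGCGC, TTTCCCGC, TTTGGCGC and TTTGCCGC, and in the sequences below capitals mark a match, joined where matches overlap. Msh3 and Msh6, which each recognise mismatches together with a shared partner, are shown with their matches. Chek1 is shown as the member with the highest level per length, and none of the words was complete in its window. That window ends in gcgggaa, the reverse complement of TTTCCCGC short of its last letter. The windows are chr13:92354954-92355253 on the minus strand for Msh3, chr17:87974800-87975099 on the plus strand for Msh6 and chr9:36726609-36726908 on the minus strand for Chek1, each written 5′ to 3′.
Msh3: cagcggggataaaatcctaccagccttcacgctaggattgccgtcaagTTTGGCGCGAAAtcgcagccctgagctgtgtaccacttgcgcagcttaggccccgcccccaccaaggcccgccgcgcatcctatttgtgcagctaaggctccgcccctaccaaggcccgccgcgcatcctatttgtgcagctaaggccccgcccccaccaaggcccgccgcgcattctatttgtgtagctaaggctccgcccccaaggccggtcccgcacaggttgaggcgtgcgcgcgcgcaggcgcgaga
Msh6: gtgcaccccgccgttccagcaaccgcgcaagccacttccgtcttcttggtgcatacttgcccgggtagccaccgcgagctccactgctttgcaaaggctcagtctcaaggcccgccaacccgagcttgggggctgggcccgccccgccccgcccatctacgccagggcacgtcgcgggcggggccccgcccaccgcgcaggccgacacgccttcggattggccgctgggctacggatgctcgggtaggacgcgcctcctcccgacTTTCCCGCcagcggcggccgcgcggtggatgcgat
Chek1: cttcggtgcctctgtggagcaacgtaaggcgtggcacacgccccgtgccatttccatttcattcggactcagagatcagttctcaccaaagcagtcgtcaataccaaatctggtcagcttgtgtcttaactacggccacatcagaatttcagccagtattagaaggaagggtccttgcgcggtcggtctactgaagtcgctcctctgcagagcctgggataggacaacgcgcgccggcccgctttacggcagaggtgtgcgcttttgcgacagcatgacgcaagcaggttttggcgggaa
At least 1 of the words was present in 8 of the 44 member promoters (18.2%), those of Brca2, Chek2, Lig1, Msh3, Msh6, Rad51c and Xrcc6, with Rad51c matched in both of its promoters. The same words were present in 3.79% of the 12800 promoters of genes that were tested and in 2.26% of all 32851 promoters. The members' windows held a median of 22.5 CpG dinucleotides, against 19 in promoters of tested genes and 7 in all promoters, so base composition differed between these sets too. A match describes letters in a window, not a bound factor, and depends on the words chosen and on where the window ends.

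Facts of the libraries that bear on every result come first. Totals ran from 3178509 to 7406895 counts per oocyte. CPM are counts scaled to the library total, and for values per mouse also by a TMM factor. Dnm1l itself stood at 207.1 ± 15.85 CPM (SD, n = 4 mice) under the Drp1_KO label and at 238.9 ± 69.24 CPM (SD, n = 5 mice) under the Drp1_WT label. Its log2 fold change was -0.21 (SE 0.19), with an adjusted p of 0.706 by edgeR. In 5 single libraries labelled Drp1_WT (tubes 11 to 15) Dnm1l lay at 116 to 156 CPM, below the 234 to 322 CPM of the other 13. Single oocytes labelled Drp1_KO ran from 144 to 274 CPM (median 204), which overlapped both ranges. The gene thus goes against the label in those 5 Drp1_WT libraries, and Drp1_KO and Drp1_WT below mean libraries labelled so. Those 5 are tubes 11 and 12 of mouse 3 and all oocytes of mouse 4, so fits without them leave mouse 4 out. The labels do not say which part of the gene was deleted, and reads from the rest of it would still count. Tube 10 of mouse b stands apart from the other 35 libraries. It had counts for 11350 genes, against 13199 to 14659 genes elsewhere, at a total of 4893482 counts. It held 15600 CPM of 14 oocyte markers (Zp3, Gdf9 and others), against 24000 to 39700 CPM elsewhere, and 562 CPM of 18 markers of immune, stromal, endothelial and epithelial cells, against 29.6 to 74.6 CPM elsewhere. Of these 18, 11 averaged under 1 CPM over the oocytes and 1 had no count at all. By mouse, oocyte markers summed to 28000 to 31600 CPM under Drp1_KO and 29200 to 33700 CPM under Drp1_WT, and 16 granulosa and cumulus markers to 116 to 130 CPM under Drp1_KO and 106 to 137 CPM under Drp1_WT. Mice d and 5 alone carry tube numbers 27 to 30, whose meaning the labels do not give.

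The oocyte store held transcripts of every pathway group, at very unequal levels. On a scale of CPM per kb of exon, which allows genes to be compared, the median member stood at 11.8 and the median tested gene at 4.4, with 33 members above that gene and 10 at or below it. Of the members, 4 ranked in the highest 10% of the 12800 genes with a length (Chek1, Rpa3, Xrcc5 and Rpa2) and 13 in the highest 20%. The most abundant member exceeded the least abundant one 1250-fold.

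**Figure D1:**
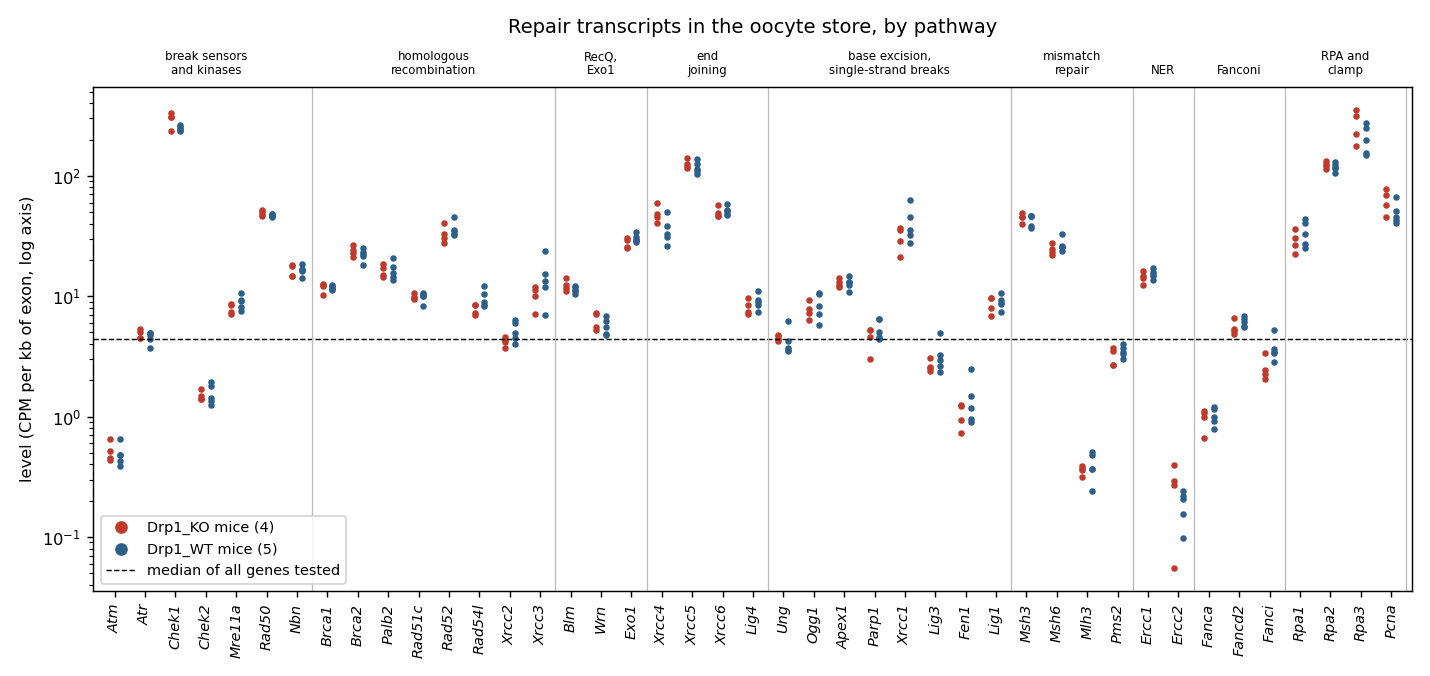
Level of each repair transcript in CPM per kb of exon (log axis), 1 point per mouse, red for the 4 mice labelled Drp1_KO and blue for the 5 labelled Drp1_WT, grouped by pathway. Chek1, Rpa3, Rpa2 and Xrcc5 lie near the top, while Atm, Mlh3 and Ercc2 lie under the dashed line, which marks the median tested gene at 4.4 CPM per kb.

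Chek1, the kinase that restrains cell cycle entry downstream of Atr, had the highest level per length of all members, at 296 ± 42.4 CPM per kb under Drp1_KO and 248 ± 11.9 CPM per kb under Drp1_WT (SD, n = 4 and 5 mice). It ranked 269th of 12800 genes under Drp1_KO and 307th under Drp1_WT. Rpa3, the smallest subunit of replication protein A, the complex that coats single-stranded DNA, came next at 266 ± 79.4 CPM per kb under Drp1_KO and 206 ± 56.7 CPM per kb under Drp1_WT. These neighbours in the order do not differ beyond their spread. Xrcc5, which encodes Ku80 of the ring that grips broken ends, stood at 126 ± 10.7 and 118 ± 13.1 CPM per kb, and Rpa2 at 123 ± 7.5 and 118 ± 8.95 CPM per kb (Drp1_KO and Drp1_WT in both cases). These levels overlapped within their SD.

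Sums per group followed these few genes. Replication protein A with the sliding clamp (4 genes) summed to 481 ± 82.3 CPM per kb under Drp1_KO and 408 ± 60.3 under Drp1_WT, which was 33.7% and 31.1% of the level of all members. Sensors and checkpoint kinases (7 genes) summed to 376 ± 40.3 and 327 ± 11.3 CPM per kb under Drp1_KO and Drp1_WT, most of it Chek1. End joining (4 genes) came to 233 ± 19 under Drp1_KO and 214 ± 21.4 under Drp1_WT, and homologous recombination (8 genes) to 117 ± 8.48 under Drp1_KO and 125 ± 17.2 under Drp1_WT. These 4 groups held most of the summed level. Mismatch repair (4 genes) reached 72.6 ± 1.63 under Drp1_KO and 73.4 ± 3.49 under Drp1_WT, close to base excision and single-strand break repair (8 genes) at 72.4 ± 11.3 under Drp1_KO and 85.2 ± 19.7 under Drp1_WT. The helicases Blm and Wrn with the exonuclease Exo1 summed to 46.2 ± 1.24 under Drp1_KO and 47.4 ± 2.15 under Drp1_WT. The members of nucleotide excision repair came to 14.7 ± 1.46 under Drp1_KO and 15.5 ± 1.23 under Drp1_WT, and the 3 Fanconi genes to 8.99 ± 1.38 under Drp1_KO and 10.8 ± 1.46 under Drp1_WT. No test was run on these sums, which describe the store.

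The median member of a group gives an order that is less ruled by a single gene. It was 92.8 CPM per kb under Drp1_KO and 83.8 under Drp1_WT for replication protein A and the clamp, and 49.1 under Drp1_KO and 43.5 under Drp1_WT for end joining. The other groups lay between 2.54 and 13.8 CPM per kb under Drp1_KO and between 3.69 and 15.1 under Drp1_WT, with Fanconi genes lowest under both labels and mismatch repair highest of them under both on this scale. Counted per kb of all annotated exons instead, a choice made after the data were seen, the medians of the upper groups became 57.6 and 27.3 under Drp1_KO and 54.1 and 25.6 under Drp1_WT, with both groups still above the rest and Fanconi genes still lowest, at 2.19 under Drp1_KO and 3.17 under Drp1_WT. On that scale mismatch repair and homologous recombination lay close together, at 9.13 and 9.12 under Drp1_KO and at 8.89 and 9.56 under Drp1_WT. These orders describe the chosen members, not whole pathways. On the first scale, other Fanconi genes ran from 0.175 (Fancf) to 887 CPM per kb (Ube2t) under Drp1_KO. Other genes of end joining ran from 0.302 (Polq) to 149 (Nhej1), and of homologous recombination from 0.345 (Recql4) to 1080 (Sfr1).

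Between the genotype labels, no repair transcript passed the threshold. EdgeR's quasi-likelihood test on counts summed per mouse, adjusted by Benjamini and Hochberg over all 12812 genes, called 0 of the 43 members at an adjusted p of 0.05, and the lowest adjusted p of a member was 0.499. Of all genes tested, 0.0156% were called, which is 2 genes. DESeq2 and limma-voom with mouse as a random effect also called 0 members. At an unadjusted p under 0.05, 2 members were higher under Drp1_KO (4.65%, against 4.89% of all genes) and 1 was lower (2.33%, against 4.81% of all genes). In 0 members did all mice of one label lie beyond all mice of the other, which held for 2.56% of all genes. The median log2 fold change was -0.06 over the members, 17 above 0 and 26 below, and -0.00 over all genes. The SE of a member's log2 fold change ran from 0.09 for Rad50 to 0.46 for Ercc2.

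**Figure D2:**
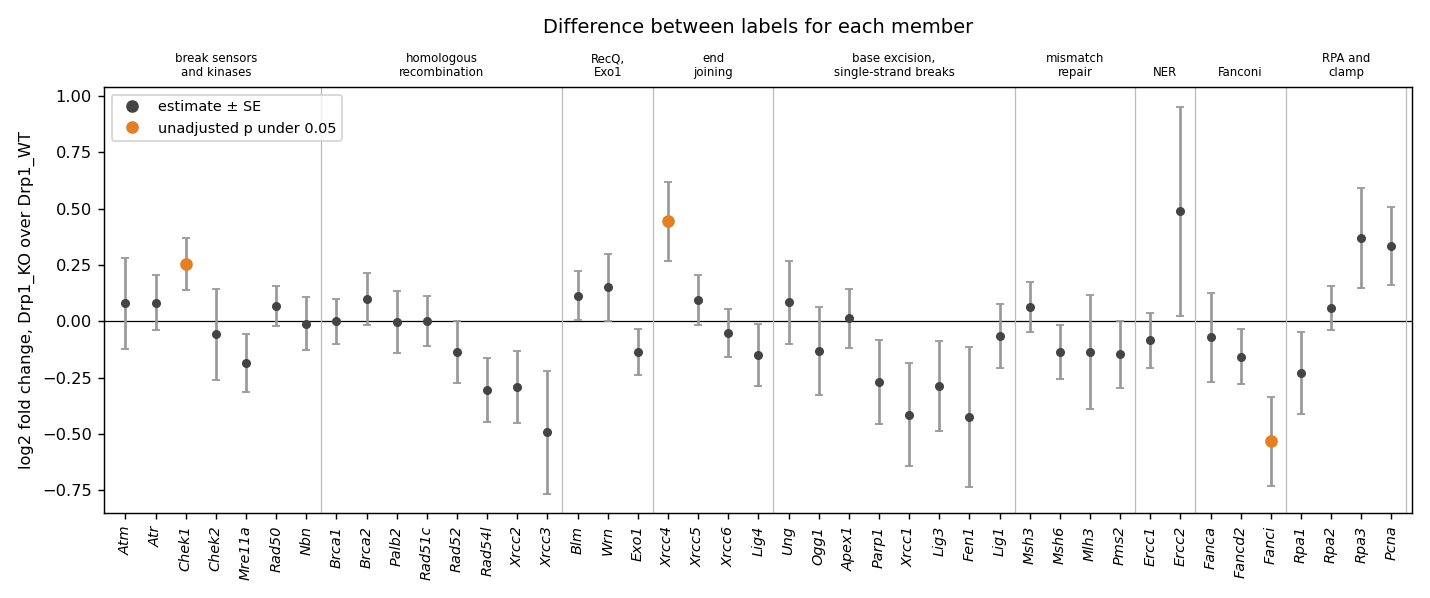
Log2 fold change of each member, Drp1_KO over Drp1_WT, with bars of 1 SE from edgeR on 4 and 5 mice, grouped by pathway. Orange points are the 3 members with an unadjusted p under 0.05, Chek1 and Xrcc4 above 0 and Fanci below it, and 0 of 43 passed the adjusted threshold.

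Among sensors and signalling kinases, Chek1 had the smallest p. Chek1 (ENSMUSG00000032113, chromosome 9, 36708482 to 36727065, GRCm38) stood at 1207, 1283, 909.6 and 1202 CPM in mice a to d, against 919.2, 929.5, 999.3, 949 and 1026 CPM in mice 1 to 5. Mice a, b and d lay above every Drp1_WT mouse and mouse c lay below all 5. The log2 fold change was 0.25 (SE 0.11, unadjusted p = 0.0432, adjusted p = 0.508 by edgeR). Tube 10 of mouse b alone held 2080 CPM, outside the 836 to 1340 CPM of the other 35 oocytes, and without it the log2 fold change was 0.18 (unadjusted p = 0.116 by edgeR). Without WT tubes 11 to 15, and so without mouse 4, it was 0.19 (unadjusted p = 0.224), and in tubes 1 to 15 alone 0.26 (unadjusted p = 0.0547).

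The complex that meets a broken end was stored in unequal parts. Rad50, its coiled-coil ATPase, was among the steadiest members, at 241.1, 267.4, 258.4 and 246.6 CPM in mice a to d and 233.8, 248.6, 247, 238.3 and 239.8 CPM in mice 1 to 5. Its nuclease partner Mre11a stood at 40.7 to 49.9 CPM in Drp1_KO mice and 43 to 61.8 CPM in Drp1_WT mice, and Nbn, which links the complex to Atm, at 37.4 to 46 CPM in Drp1_KO mice and 36 to 47.2 CPM in Drp1_WT mice. All 3 genes overlapped between labels. Per length, Rad50 exceeded Mre11a 6.33-fold under Drp1_KO and 5.35-fold under Drp1_WT, and Nbn exceeded Mre11a 2-fold and 1.86-fold (Drp1_KO and Drp1_WT). The kinase Atr stood at 36.6 to 44.1 CPM in Drp1_KO mice and 30.5 to 40.8 CPM in Drp1_WT mice.

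The other 2 kinases were scarce. Atm, which is activated by breaks, stood at 4.36 to 6.51 CPM in Drp1_KO mice and 3.91 to 6.48 CPM in Drp1_WT mice, 0.515 and 0.486 CPM per kb. Chek2, its effector and in mouse oocytes a known trigger of their elimination after DNA damage, stood at 3.16 to 3.84 CPM in Drp1_KO mice and 2.82 to 4.41 CPM in Drp1_WT mice. Both had 0 counts in tube 10 of mouse b, which allows up to 0.613 CPM at the total of that library, and at least 1 count in each of the other 35 oocytes.

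In homologous recombination, Rad52, Brca2 and Palb2 had the highest levels per length, with Rad52 at 32.9 CPM per kb under Drp1_KO and 36.1 under Drp1_WT. Counted per kb of all annotated exons Brca2 led, at 17.9 CPM on average over all mice, against 10.2 CPM for Rad52. On that scale Xrcc3 lay above Rad52 at 10.9 CPM. Palb2, at 8.78 CPM, then lay below Rad51c at 9.71 CPM and Brca1 at 9.1 CPM, so this order depends on the exons counted. Brca2, which loads the recombinase onto DNA, stood at 227.6 to 285.5 CPM in Drp1_KO mice and 195.4 to 268.2 CPM in Drp1_WT mice (log2 0.10, SE 0.11, and 0.04 without tube 10 of mouse b). Palb2, which joins it to Brca1, stood at 57 to 73.2 CPM in Drp1_KO mice and 53.7 to 81.2 CPM in Drp1_WT mice, and Brca1, a ubiquitin ligase that steers breaks into this route, at 67.4 to 82.2 and 74.1 to 81.6 CPM (Drp1_KO and Drp1_WT). The log2 fold changes of Palb2 and Brca1 were -0.01 (SE 0.14) and -0.00 (SE 0.10). Rad52, whose role in mammals is in part a backup to Brca2, stood at 47.2 to 68.2 CPM in Drp1_KO mice and 54.9 to 76.5 CPM in Drp1_WT mice. These 4 genes overlapped widely between labels.

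The paralogues and the motor protein that assist strand exchange were lower in CPM, which is not scaled for length. Per kb of exon, Xrcc3 stood at 10.1 CPM under Drp1_KO and 14.2 CPM under Drp1_WT, on either side of Brca1 at 11.8 CPM under both. Rad51c stood at 41.1 to 45.8 CPM in Drp1_KO mice and 35.7 to 46.1 CPM in Drp1_WT mice, and Xrcc2 at 13.2 to 16.1 CPM in Drp1_KO mice and 14.1 to 22.4 CPM in Drp1_WT mice. Rad54l, a DNA translocase of recombination, stood at 21.8 to 26.4 CPM in Drp1_KO mice and 25.6 to 38 CPM in Drp1_WT mice (log2 -0.30, SE 0.14, unadjusted p = 0.0524, adjusted p = 0.515 by edgeR), and 15.4% of its exon bases are shared with Lrrc41 on the other strand. Xrcc3 had one of the widest spreads among mice. It stood at 27.3, 24.5, 28.9 and 17.1 CPM in mice a to d and at 57.5, 32.5, 28.8, 36.7 and 17 CPM in mice 1 to 5 (log2 -0.49, SE 0.27, adjusted p = 0.549 by edgeR). Mice d and 5, one of each label, were lowest, and mouse 1 was highest. Without mouse 1 the log2 fold change was -0.23.

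The RecQ helicases, which unwind recombination intermediates, did not differ between labels past the threshold. Blm stood at 55 to 70.2 CPM in Drp1_KO mice and 52 to 59.7 CPM in Drp1_WT mice (log2 0.11, SE 0.11), and Wrn at 37 to 51 CPM in Drp1_KO mice and 33.5 to 48.5 CPM in Drp1_WT mice (log2 0.15, SE 0.15). Exo1, which resects ends and acts in mismatch repair, stood at 195.9 to 235 CPM in Drp1_KO mice and 219.4 to 265.9 CPM in Drp1_WT mice (log2 -0.14, SE 0.10). Without tube 10 of mouse b the log2 fold changes were 0.06 for Blm and 0.04 for Wrn, and without WT tubes 11 to 15 as well that of Wrn was -0.03. None of the 3 had an unadjusted p under 0.05 with all libraries.

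In end joining, Xrcc4 had the smallest p of this group. Xrcc4 (ENSMUSG00000021615, chromosome 13, 89774027 to 90089608, GRCm38), the scaffold of the ligase, stood at 70.6, 74.3, 61.9 and 92.3 CPM in mice a to d, against 40.2, 50.7, 58.4, 47.9 and 77.2 CPM in mice 1 to 5. All 4 Drp1_KO mice lay above mice 1 to 4, while mouse 5 lay above mice a, b and c. The log2 fold change was 0.44 (SE 0.18, unadjusted p = 0.0254, adjusted p = 0.499 by edgeR). In tubes 1 to 15 alone it was 0.48 (unadjusted p = 0.00462, adjusted p = 0.391 by edgeR), and mice d and 5 of tubes 27 to 30 stood at 92.3 and 77.2 CPM. Without WT tubes 11 to 15, and so without mouse 4, it was 0.32 (unadjusted p = 0.144), and without mouse d 0.33 (unadjusted p = 0.0908).

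Lig4, the ligase that Xrcc4 carries, stood at 43.9, 38.8, 36.8 and 49.8 CPM in mice a to d and 44, 57.6, 46.8, 48.4 and 38.1 CPM in mice 1 to 5 (log2 -0.15, SE 0.14). Within single oocytes the log2 ratio of Lig4 to Xrcc4 counts averaged -0.86 ± 0.19 over Drp1_KO mice and -0.21 ± 0.50 over Drp1_WT mice (SD, n = 4 and 5), a difference of -0.65 (exact two-sided permutation p = 0.0556, adjusted p = 0.306 over 11 pairs). Mouse 5 was the Drp1_WT mouse within the Drp1_KO range. Without tube 10 of mouse b the difference was -0.57 (exact permutation p = 0.0714).

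Ku itself was stored in quantity. Xrcc5 stood at 319.9, 310.3, 298.7 and 361.6 CPM in mice a to d and at 282.7, 291.5, 318, 266.8 and 352.3 CPM in mice 1 to 5 (log2 0.09, SE 0.11). Xrcc6, which encodes its Ku70 partner, stood at 153.8 to 188.4 CPM in Drp1_KO mice and 155.6 to 195.3 CPM in Drp1_WT mice (log2 -0.05, SE 0.11). Although the proteins act as a heterodimer, Xrcc6 transcript per length was 0.388 of Xrcc5 under Drp1_KO and 0.432 under Drp1_WT, below 1 in all 9 mice (0.321 to 0.532).

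Base excision and single-strand break repair had the lowest median log2 fold change of the 9 groups, -0.20, with 0 of its 8 members at an unadjusted p under 0.05. Xrcc1, the scaffold that gathers the enzymes at nicks, stood at 89.9, 72.3, 93.3 and 53.7 CPM in mice a to d and at 160.2, 81.1, 89.6, 114.9 and 69.5 CPM in mice 1 to 5 (log2 -0.41, SE 0.23, unadjusted p = 0.0945, adjusted p = 0.548 by edgeR). Mouse d was lowest and mouse 1 highest, with the other mice of both labels in between. The log2 fold change was -0.20 without mouse 1, -0.28 without mouse d and -0.29 without WT tubes 11 to 15. Single oocytes ran from 1.43 to 116 CPM under Drp1_KO and from 36.8 to 178 CPM under Drp1_WT, the lowest being tube 10 of mouse b.

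Lig3, the ligase held by Xrcc1, stood at 15.6 to 20 CPM in Drp1_KO mice and 15.4 to 32.5 CPM in Drp1_WT mice (log2 -0.29, SE 0.20, and -0.08 without mouse 1), and 25.1% of its exon bases are shared with Rffl on the other strand. Parp1, which marks breaks with poly(ADP-ribose), stood at 11.6 to 20.2 CPM in Drp1_KO mice and 17.2 to 25.1 CPM in Drp1_WT mice (log2 -0.27, SE 0.19). Without WT tubes 11 to 15 the value for Parp1 was -0.14, and without mouse d -0.12. Lig1, the ligase of replication and long patches, stood at 24.1 to 34.1 and 26.2 to 37.6 CPM (Drp1_KO and Drp1_WT; log2 -0.07, SE 0.14). All of these ranges overlapped.

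The members that start base excision were low in CPM. Per length, Ogg1 and Apex1 lay above the median tested gene and Ung just below it. Per kb of exon, Ung, Ogg1 and Apex1 stood at 4.36, 8.11 and 12.9 CPM over all mice, against 4.4 for the median tested gene. Ung, which removes uracil, stood at 10.8 to 12.1 CPM in Drp1_KO mice and 8.91 to 16 CPM in Drp1_WT mice, and Ogg1, which removes oxidised guanine, at 9.84 to 14.4 CPM in Drp1_KO mice and 8.99 to 16.6 CPM in Drp1_WT mice. Apex1, which cuts at the resulting empty sites, stood at 14.9 to 17.5 CPM in Drp1_KO mice and 13.4 to 18.1 CPM in Drp1_WT mice, but 61.7% of its exon bases are shared with Pip4p1. Fen1, the flap nuclease, stood at 1.77 to 3.01 CPM in Drp1_KO mice and 2.2 to 5.98 CPM in Drp1_WT mice (log2 -0.43, and -0.13 without mouse 1), with 78.8% of its exon bases under an antisense gene. Levels of these overlapped genes are uncertain because the library kits keep no strand.

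In mismatch repair, 0 of 4 members had an unadjusted p under 0.05. Msh3, which recognises loops, stood at 161.8 to 197.9 CPM in Drp1_KO mice and 149.6 to 188.9 CPM in Drp1_WT mice (log2 0.06, SE 0.11). Msh6, which recognises single mismatches, stood at 92.6 to 117 CPM in Drp1_KO mice and 100.3 to 139.9 CPM in Drp1_WT mice (log2 -0.13, SE 0.12). Both compete for the same partner, and Msh3 exceeded Msh6 per length in all 9 mice, 1.78-fold under Drp1_KO and 1.59-fold under Drp1_WT. Counted per kb of all annotated exons, Msh3 stood at 15.7 CPM and Msh6 at 25.1 CPM on average over all mice, so that order depends on which exons are counted.

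The downstream mismatch factors were scarcer. Pms2, the nuclease subunit, stood at 14.8 to 20.5 CPM in Drp1_KO mice and 16.4 to 22.1 CPM in Drp1_WT mice. Mlh3, which is needed for meiotic crossovers, stood at 1.75 to 2.16 CPM in Drp1_KO mice and 1.34 to 2.81 CPM in Drp1_WT mice, among the lowest members per length.

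In nucleotide excision repair, Ercc1, part of the nuclease that cuts beside the lesion, stood at 22.4 to 29.1 CPM in Drp1_KO mice and 24.6 to 30.5 CPM in Drp1_WT mice (log2 -0.09, SE 0.12). Ercc2, the XPD helicase, was the scarcest member, at 0.96, 1.04, 1.43 and 0.197 CPM in mice a to d and 0.554, 0.857, 0.789, 0.733 and 0.352 CPM in mice 1 to 5. Mouse d was lowest and mice a to c were highest, so the labels overlapped. It had 0 counts in 2 oocytes of mouse d, where up to 0.506 and 0.552 CPM are allowed, and in 1 oocyte of mouse 3, where up to 0.484 CPM is allowed. Together with the zeros of Atm and Chek2, these were the only zeros, and 40 of 43 members had counts in all 36 oocytes.

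Among Fanconi genes, Fanci had the smallest p of any member. Fanci (ENSMUSG00000039187, chromosome 7, 79391929 to 79450264, GRCm38), which pairs with Fancd2 in a clamp that is loaded at crosslinks, stood at 11.3, 12.2, 16.8 and 10.2 CPM in mice a to d, against 25.9, 14, 18, 17 and 16.7 CPM in mice 1 to 5. Mice a, b and d lay below every Drp1_WT mouse, while mouse c lay above mice 2 and 5. The log2 fold change was -0.53 (SE 0.20, unadjusted p = 0.0181, adjusted p = 0.499 by edgeR). It was -0.51 without tube 10 of mouse b (unadjusted p = 0.0215), -0.47 in tubes 1 to 15 alone (unadjusted p = 0.0479) and -0.38 without mouse 1 (unadjusted p = 0.051). Of its exon bases 16% are shared with Polg, the mitochondrial DNA polymerase, on the other strand.

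Fancd2 stood at 26.9 to 36 CPM in Drp1_KO mice and 30.6 to 37.4 CPM in Drp1_WT mice (log2 -0.16, SE 0.12). The log2 ratio of Fanci to Fancd2 counts within oocytes averaged -1.36 ± 0.20 over Drp1_KO mice and -0.95 ± 0.26 over Drp1_WT mice. The difference was -0.42 (exact two-sided permutation p = 0.0238, adjusted p = 0.262 over 11 pairs). Fanca, of the core complex that modifies this pair, stood at 4.28 to 7.16 CPM in Drp1_KO mice and 5.03 to 7.69 CPM in Drp1_WT mice. The Drp1_KO and Drp1_WT ranges of both genes overlapped.

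In replication protein A and the clamp, 0 of 4 members had an unadjusted p under 0.05. Rpa3 stood at 150.2, 209.7, 119 and 234.9 CPM in mice a to d and at 99.4, 168.2, 133.2, 104.6 and 185.2 CPM in mice 1 to 5 (log2 0.37, SE 0.22, unadjusted p = 0.117, adjusted p = 0.567 by edgeR). Pcna, the sliding clamp, stood at 87.4, 105.1, 68.6 and 117.2 CPM in mice a to d and at 69, 76.7, 65.3, 62 and 101.6 CPM in mice 1 to 5 (log2 0.34, SE 0.17, unadjusted p = 0.0756, adjusted p = 0.535 by edgeR). Mouse d was highest for both genes, and mouse 5 lay above mice a and c for both. Without tube 10 of mouse b, which held 445 CPM of Rpa3 and 211 CPM of Pcna, the log2 fold changes were 0.24 for Rpa3 and 0.23 for Pcna. Without WT tubes 11 to 15 they were 0.18 for Rpa3 and 0.25 for Pcna, and with both sets left out 0.05 for Rpa3 and 0.14 for Pcna. A Pcna pseudogene is also in the table, so reads could be divided between them.

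Rpa1, the large subunit, which makes most contacts with DNA, stood at 116 to 186.9 CPM in Drp1_KO mice and 129.2 to 224.9 CPM in Drp1_WT mice (log2 -0.23, SE 0.18, and -0.06 without WT tubes 11 to 15), and Rpa2 at 207.4 to 238.9 CPM in Drp1_KO mice and 191.6 to 234.6 CPM in Drp1_WT mice (log2 0.06, SE 0.10). Although the 3 proteins form a trimer, Rpa3 transcript per length was 9.74 times that of Rpa1 under Drp1_KO and 6.28 times under Drp1_WT, with the extremes at 15.4 in mouse d and 3.41 in mouse 1. Neither this ratio nor that of Rpa2 to Rpa1 differed between labels past the threshold (exact two-sided permutation p = 0.246 and 0.579).

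**Figure D3:**
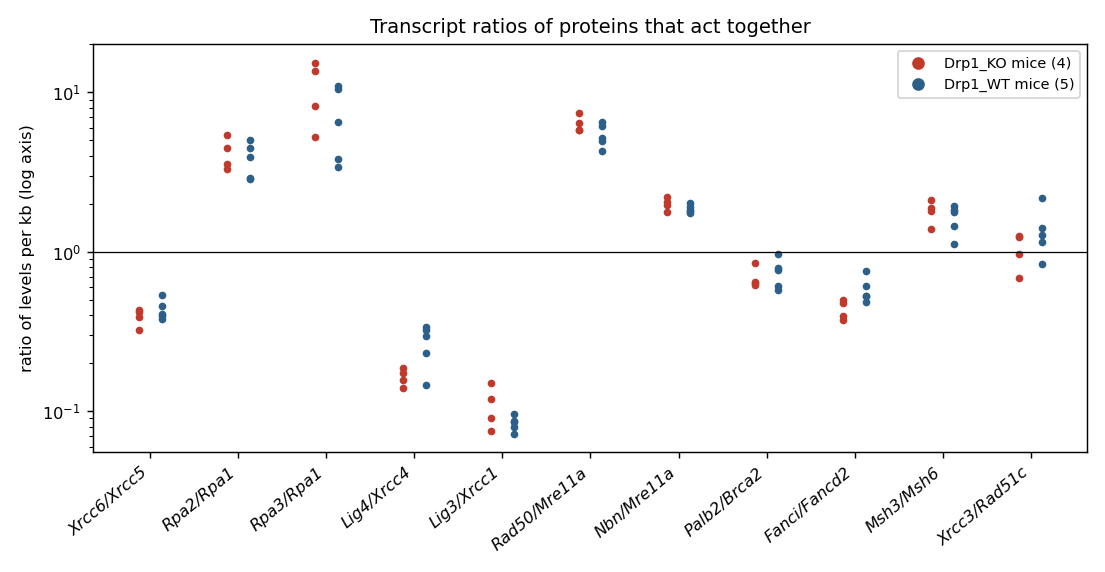
Ratio of levels per kb between members whose proteins act in 1 complex or at 1 step (log axis), 1 point per mouse, red for the 4 mice labelled Drp1_KO and blue for the 5 labelled Drp1_WT. Rpa3 to Rpa1 runs from 3.41 to 15.4 over the mice, Xrcc6 to Xrcc5 stays between 0.321 and 0.532, and no pair separates the labels.

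Of the 11 ratios of partners, 0 passed an adjusted p of 0.05 by the exact permutation test, in which every division of the 9 mice into 4 and 5 was drawn, and 1 (Fanci to Fancd2) had an unadjusted p under 0.05. Lig4 to Xrcc4 had the next smallest p, and the other 9 pairs had adjusted p between 0.402 and 0.579. With tube 10 left out, the Nbn to Mre11a difference was 0.19 on the log2 scale, against 0.10 with it, and had the smallest p (exact permutation p = 0.0238, adjusted p = 0.262). That of Fanci to Fancd2 was then -0.40 (exact permutation p = 0.0476, adjusted p = 0.262). The ratios were computed within oocytes, so they do not depend on depth or scaling. Lig3 to Xrcc1 was 0.105 per length under Drp1_KO and 0.0836 under Drp1_WT, and became 0.089 under Drp1_KO without tube 10 of mouse b. Palb2 to Brca2 was 0.679 under Drp1_KO and 0.729 under Drp1_WT, and Xrcc3 to Rad51c 1.01 under Drp1_KO and 1.31 under Drp1_WT.

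Mice differed from each other whatever their label, and by different amounts for different members. The highest mouse exceeded the lowest 1.56-fold for the median member and 1.88-fold for the median tested gene. Mouse d, labelled Drp1_KO, was the lowest mouse for 11 of the 43 members (25.6%, against 21.1% of all genes), and mouse 1, labelled Drp1_WT, the highest for 18 (41.9%, against 22.7% of all genes). Mice d and 5, with tubes 27 to 30, lay together above the other 7 mice for Xrcc4 and Xrcc5 (4.65% of members, against 11.7% of all genes) and together below them for Brca1, Xrcc3, Ogg1, Xrcc1, Lig1 and Ercc2 (14% of members, against 10.9% of all genes). The 81 cytosolic ribosomal protein genes, given as a measure of differences among mice, had a mean centred log2 level of 0.42 in mouse d and 0.28 in mouse 5, against -0.33 in mouse 1 and -0.31 in mouse 4. With tube set as a term of the edgeR fit, the log2 fold changes were 0.43 for Xrcc4 (unadjusted p = 0.00262, adjusted p = 0.238), 0.25 for Chek1 (unadjusted p = 0.0267, adjusted p = 0.313) and -0.53 for Fanci (unadjusted p = 0.0126, adjusted p = 0.28), and 4 members rather than 1 were lower at an unadjusted p under 0.05. The part of the ribosomal level in the members' differences was not tested.

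**Figure D4:**
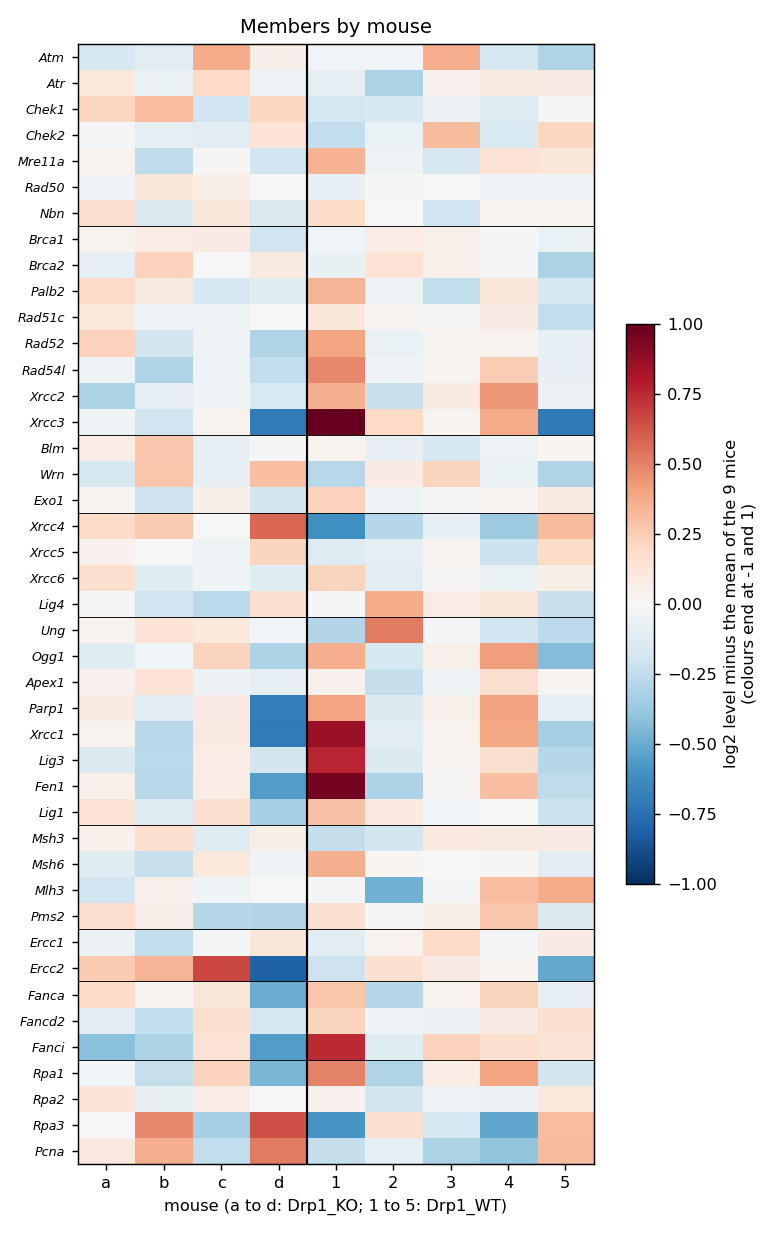
Log2 level of each member in each mouse minus the mean over the 9 mice, with mice a to d labelled Drp1_KO on the left and mice 1 to 5 labelled Drp1_WT on the right. Xrcc3, Xrcc1 and Fen1 are low in mouse d and high in mouse 1, while Xrcc4 and Rpa3 are high in mouse d and low in mouse 1.

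Oocytes of the same mouse also differed from each other. The SD of log2(CPM+1) among oocytes of a mouse had a median of 0.478 over the members under Drp1_KO and 0.29 under Drp1_WT, and 0.264 under Drp1_KO without tube 10 of mouse b. In tube 10, 7 members lay above all other 35 libraries (16.3%, against 14.4% of all genes) and 26 below (60.5%, against 42.2% of all genes). Those above were Chek1, Brca2, Palb2, Blm, Wrn, Rpa3 and Pcna. Those below included Xrcc1 at 1.43 CPM (31 to 178 CPM elsewhere), Rpa2 at 10.6 CPM (149 to 271 CPM elsewhere), Rad51c at 2.04 CPM (30.5 to 55.6 CPM elsewhere) and Xrcc5 at 41.5 CPM (239 to 433 CPM elsewhere). Neither the part of that library's foreign markers nor that of its lower number of detected genes in these values was tested.

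**Figure D5:**
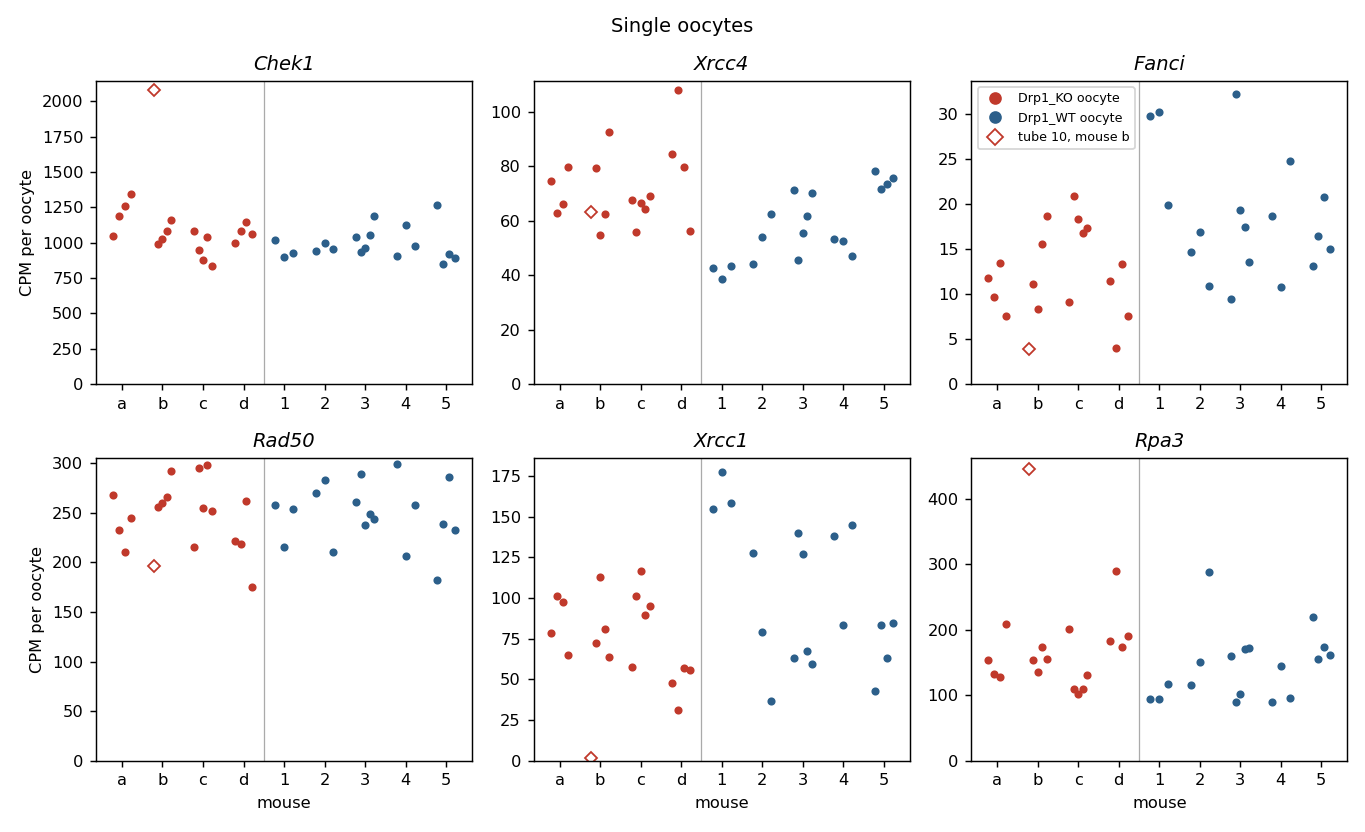
CPM of 6 members in single oocytes by mouse, red for Drp1_KO (mice a to d) and blue for Drp1_WT (mice 1 to 5), with tube 10 of mouse b as an open diamond. Tube 10 stands at 2080 CPM of Chek1, 445 CPM of Rpa3 and 1.43 CPM of Xrcc1, while Rad50 stays between 175 and 299 CPM in all 36 oocytes.

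Other genes of the same pathways, taken from lists written with earlier results of these data known, are given here for comparison. Of 148 genes found, 143 were tested, and 0 passed the adjusted threshold by edgeR, DESeq2 or limma-voom. At an unadjusted p under 0.05, 2 were higher under Drp1_KO (1.4%, against 4.89% of all genes) and 7 lower (4.9%, against 4.81% of all genes), and their median log2 fold change was 0.00. By list, 1 of 26 genes of damage signalling and chromatin at breaks was higher. In homologous recombination 1 of 31 was higher and 4 lower. In mismatch repair 1 of 6, in nucleotide excision repair 1 of 19 and in the Fanconi pathway 1 of 13 was lower, and 0 were counted in end joining (14), base excision (15) or translesion synthesis and clamp handling (19).

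The gene of this wider set with the smallest p was Fance, a core Fanconi subunit that binds Fancd2, at 4.33 ± 1.14 CPM under Drp1_KO and 7.77 ± 3.17 CPM under Drp1_WT (log2 -0.83, SE 0.29, adjusted p = 0.499 by edgeR). Tipin, which keeps stalled replication forks together and helps activate Chek1, stood at 357 ± 75.9 CPM under Drp1_KO and 263 ± 59.9 CPM under Drp1_WT (log2 0.44, SE 0.18, adjusted p = 0.499 by edgeR). Mnd1, a partner of meiotic strand exchange, stood at 48.3 ± 8.9 CPM under Drp1_KO and 35.3 ± 8.07 CPM under Drp1_WT, and Rad51d, a paralogue that acts with Xrcc2, at 22.2 ± 5.62 CPM under Drp1_KO and 31.6 ± 7.37 CPM under Drp1_WT. The 2 labels overlapped for all 4 genes. Xab2, a factor of transcription-coupled repair and splicing, stood at 30.6 ± 7.43 CPM under Drp1_KO and 44.1 ± 10.8 CPM under Drp1_WT (log2 -0.53, SE 0.20, adjusted p = 0.499 by edgeR). Msh5, of the meiotic crossover complex, was near the floor at 0.808 ± 0.264 CPM under Drp1_KO and 1.46 ± 0.366 CPM under Drp1_WT.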

How the data were processed

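Single germinal vesicle oocytes were lysed, their cDNA was made with a SMARTer kit and libraries with Nextera XT, per the labels' protocols. The authors deposited raw counts per Ensembl gene for 36 oocytes. The tools named in the submitters' processing notes are featureCounts, Picard, STAR and Subread 1.5.2, with build GRCm38. The sources used here give no strand setting, annotation release, treatment of multiply matching reads or removal of PCR copies, so intervals and floors (3 counts of the total) cover counting error only. Symbols, exon lengths (basic transcript set, exons merged) and overlaps came from GENCODE M21, and 21876 of 21968 genes matched. Counts were summed per mouse, the replicate, since oocytes of a mouse share their source. The table was tested with edgeR 4.0.16 (R 4.3.3; TMM factors, filterByExpr, robust quasi-likelihood fit, Benjamini-Hochberg adjustment over all genes tested, common coefficient of variation 0.214). Nothing in the labels says how mice were matched. Mouse levels are CPM scaled by TMM, and single oocytes use CPM on each library's own total. Partner ratios used counts + 0.5 and an exact two-sided permutation test (Python 3.11.15, numpy 2.4.6). No library repeated another: over 306 same-label pairs the lowest chi-square divided by its degrees of freedom was 5.77. Members named are all 43, and from each wider list up to 3 genes with the smallest p. Where a range of levels is given for a wider list, the genes at its ends are named too. The members, lists and the alternatives on tube 10 and tubes 11 to 15 were chosen with earlier results of these data known. Alternatives used DESeq2 1.42.0, limma 3.58.1, other scaling factors, filters, tube sets and left-out mice or libraries. The scripts were tested on simulated data.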

Additional observations from a re-analysis of the deposited data

Results flagged for a closer look

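Within 108 groups of mice examined for a mouse far from the others of its label, 4 were picked out, where chance picks about 1 in 20. Rad52 stood at 76.5 CPM in mouse 1, against 54.9 to 59.7 CPM in the other mice labelled Drp1_WT. Msh6 stood at 139.9 CPM in the same mouse, against 100.3 to 110.1 CPM in the others. Ung stood at 16 CPM in mouse 2, against 8.91 to 10.9 CPM in the other mice labelled Drp1_WT. The log2 ratio of Palb2 to Brca2 counts was -1.68 in mouse a, against -2.14 to -2.08 in the other mice labelled Drp1_KO.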

How the results depend on the processing

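Members past the adjusted threshold numbered 0 in every alternative run, and so did partner ratios. All genes called numbered 37 with DESeq2, 9 with limma-voom and 4 in tubes 1 to 15 alone, against 2. Members higher at an unadjusted p under 0.05 numbered 1 with library totals, upper quartile factors, limma-voom or without KO tube 10, and 0 without WT tubes 11 to 15, alone or with KO tube 10. Members lower numbered 2 with DESeq2, limma-voom, upper quartile factors or at least 1 CPM in 4 mice, 3 with library totals or tubes 1 to 15 alone, 4 with tube set as a term and 0 without KO tube 10 and WT tubes 11 to 15. Leaving out each mouse gave 1 to 3 genes called, 0 to 4 members higher, 0 to 4 lower and a median log2 fold change of -0.08 to 0.01. The cause of these moves was not tested. Leaving out tube 10 with tubes 11 to 15 and counting all annotated exons were chosen after seeing the data. Settings without WT tubes 11 to 15 also lack mouse 4, so they rest on fewer Drp1_WT mice.

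Some log2 fold changes turned sign under an alternative, from reported values of members between -0.137 (Mlh3) and 0.151 (Wrn). With library totals alone the values were -0.003 for Atm and Ung, -0.016 for Rad50, -0.086 for Rad51c, -0.073 for Apex1, -0.025 for Msh3 and -0.023 for Rpa2. With upper quartile factors they were -0.025 for Rad51c and -0.016 for Apex1. Brca1 was at 0.001 with RLE factors, 0.002 with DESeq2, 0.003 with tube set as a term and 0.007 with no filter on low counts. Palb2 was at 0.005 with tube set as a term and 0.004 with no filter, where Nbn was at 0.0. With limma-voom the values were -0.069 for Atm, 0.043 for Palb2, -0.083 for Rad51c, -0.006 for Xrcc5, -0.015 for Apex1 and -0.103 for Rpa2. In tubes 1 to 15 alone they were 0.041 for Nbn, 0.047 for Brca1, -0.048 for Rad51c and 0.035 for Fanca. Without KO tube 10 they were 0.016 for Nbn and 0.028 for Brca1. Without WT tubes 11 to 15 they were -0.036 for Rad51c, -0.019 for Xrcc5, -0.005 for Ung, 0.027 for Ogg1, 0.149 for Mlh3, 0.037 for Fanca and -0.053 for the ratio of Rpa2 to Rpa1. With both sets left out they were 0.016 for Nbn, 0.022 for Brca1, -0.029 for Wrn, -0.025 for Ung, 0.037 for Ogg1, 0.186 for Mlh3 and 0.053 for Fanca. Leaving out each mouse, ranges that crossed 0 were -0.054 to 0.032 (Rad51c), -0.065 to 0.037 (Nbn), -0.038 to 0.063 (Apex1), -0.044 to 0.212 (Atm), -0.074 to 0.089 (Palb2), -0.025 to 0.06 (Brca1), -0.129 to 0.025 (Lig1), -0.151 to 0.065 (Fanca) and -0.13 to 0.04 (Chek2).

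No paired analysis was possible because Drp1_KO mice are named by letters and Drp1_WT mice by numbers, so they share no replicate label, and oocyte numbers only follow the order of deposit. With 4 and 5 mice and a member's SE of up to 0.46 on the log2 scale, small differences were not detectable at this depth of replication.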
